A study of Mus musculus with 12 samples.

Results

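The interleukin 1 family and the inflammasome were followed here through 10 genes chosen by name: the cytokine genes Il1a, Il1b and Il18, the antagonist genes Il1rn and Il18bp, the sensor gene Nlrp3, the adaptor gene Pycard, the caspase genes Casp1 and Casp4, and the pore gene Gsdmd. Each of the 10 was matched to 1 of the 55421 genes of the deposited count table, and all 10 were among the 18842 genes that passed the filter on low counts. The rule names the genes and uses no measured value, but the list was chosen with earlier results of these data known. Shares of these genes called are therefore not those of a list chosen blind to the data.

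RNA was sequenced from microglia, the macrophages that live in the brain, after deprivation of oxygen and glucose in culture (OGD), which stands in for the loss of blood supply in stroke. Cells were sorted by fluorescence from brains of mice labelled male and aged 35 to 40 days after birth. KO mice carried Slc2a5-/-::Cx3cr1EGFP and WT mice Cx3cr1EGFP, so both genotypes carried the reporter allele at Cx3cr1 and only KO mice lacked Slc2a5, which encodes the fructose transporter GLUT5. KO-recovery and WT-recovery cells had 6 h of OGD followed by 24 h of recovery, and KO-OGD and WT-OGD cells had 6 h of OGD alone, with 3 libraries in each of the 4 groups. The labels did not say whether the replicates were different animals or cultures, so p-values reflect sample-to-sample spread alone, and that spread may be technical. Cells that had no OGD were not analysed here, and a difference between recovery and OGD has no baseline before the deprivation.

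Interleukin 1 alpha and interleukin 1 beta act on the same receptor, and the product of Il1rn occupies that receptor without starting a signal. Interleukin 1 beta and interleukin 18 are made as inactive precursors and are released after an inflammasome has formed, in which a sensor such as NLRP3 gathers the adaptor ASC (gene Pycard) and caspase-1. Caspase-1 cuts both precursors and gasdermin D, whose fragment forms pores in the membrane, while mouse caspase-11 (gene Casp4) senses bacterial lipopolysaccharide inside the cell and also cuts gasdermin D. RNA levels show none of these cleavage steps.

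Library totals ran from 9885259 to 45347118 counts and were lower after recovery, so low genes carry the wider counting error there. The share of mitochondrial counts was 4.72 to 18.4% after recovery and 4.20 to 5.75% straight after OGD, with 18.4% in WT-recovery replicate 1, whose treatment field named no recovery although its title did. Among 10 microglia markers Siglech had no count in the recovery libraries and WT-OGD and at most 0.0986 CPM in KO-OGD, and Tmem119 stayed between 0.0295 and 2.74 CPM. Csf1r lay between 647 and 996 CPM, so the labelled cell type was carried by some of its markers and not by others. The 7 border macrophage markers were split too. Mrc1 lay between 734 and 1073 CPM, Ms4a7 between 38.8 and 97.4 CPM, Pf4 between 3.80 and 421 CPM and Folr2 between 3.42 and 41.9 CPM. Cbr2 lay between 0.951 and 6.89 CPM, and Cd163 and Lyve1 reached at most 1.39 and 0.665 CPM. Astrocyte markers summed to 53.2 to 88.2 CPM in KO-recovery, 121 to 147 CPM in WT-recovery, 36.9 to 59.4 CPM in KO-OGD and 104 to 159.6 CPM in WT-OGD. Muscle, cartilage and connective tissue transcripts summed to 263 and 225 CPM in KO-recovery replicates 1 and 3, against 15.0 in replicate 2 and at most 60.7 in any WT-recovery library. Xist, the RNA of the inactive X chromosome, had 7139, 4101 and 5828 counts in KO-recovery, against 0, 3 and 0 in WT-recovery. Straight after OGD it had 10232, 7040 and 8922 counts in KO, against 6528, 5111 and 7656 in WT. WT-recovery thus stands apart from the other 3 groups by sex as Xist shows it, although every sample is labelled male. Sex cannot be told apart from genotype after recovery, from recovery in WT, or from the interaction of genotype and recovery. Slc2a5 had 1, 0 and 0 counts in KO-recovery, against 1, 2 and 0 in WT-recovery. The OGD libraries had 17, 4 and 17 in KO, against 45, 40 and 58 in WT, so this gene checks the labels of the OGD libraries only. In these bulk samples fewer cells of a type and less RNA per cell cannot be told apart.

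The counts themselves show how reads were assigned. Among 2374 pairs in which 1 annotated gene lay wholly inside another and had at least 200 counts, the outer gene had at least as many counts as the inner one in every library for 2373 pairs, including all 1361 pairs on opposite strands. Counts therefore took in introns and both strands, and a read over several genes was counted for each. This bears on 5 of the 10 genes. Il1a (chr2:129299610-129309972, minus strand, GRCm38) shares 8217 of its 10363 bases with the noncoding gene Gm14023 on the other strand, and their counts differed by at most 0.873% in any library, so their reads cannot be told apart. Pycard can share at most 48.2 to 67.1% of its reads with Gm45205, Il1b at most 17.3 to 40.4% with Il1bos and Il18 at most 7.54 to 36.6% with Bco2, by library. For Il18bp the counts set no such bound, since its opposite-strand neighbour Numa1 had more counts, but only 80 bases are shared. Il1rn, Casp1, Casp4, Nlrp3 and Gsdmd overlapped no other annotated gene.

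Recovery moved most of these genes in both genotypes, and more of them were called between the genotypes after it than straight after OGD. In KO, 8 of the 10 genes rose and 2 fell with recovery, against a background of 59.0% of all genes called (29.3% higher, 29.6% lower). In WT, 7 rose and 2 fell, against 56.8% of all genes (26.9% higher, 29.9% lower). After recovery, Il18bp, Casp1, Casp4 and Gsdmd were higher and Il1b and Il18 lower in KO than in WT, 6 genes against a background of 22.2%, from 1909 genes higher and 2266 lower. Straight after OGD, Il18 alone was called, lower in KO, against a background of 7.49% (0.966% higher, 6.52% lower). Calls were set at 0.05 on the adjusted p of edgeR's quasi-likelihood test (Benjamini-Hochberg over the genes tested). Levels are CPM, the counts scaled to a common library size after TMM normalisation.

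**Figure D1:**
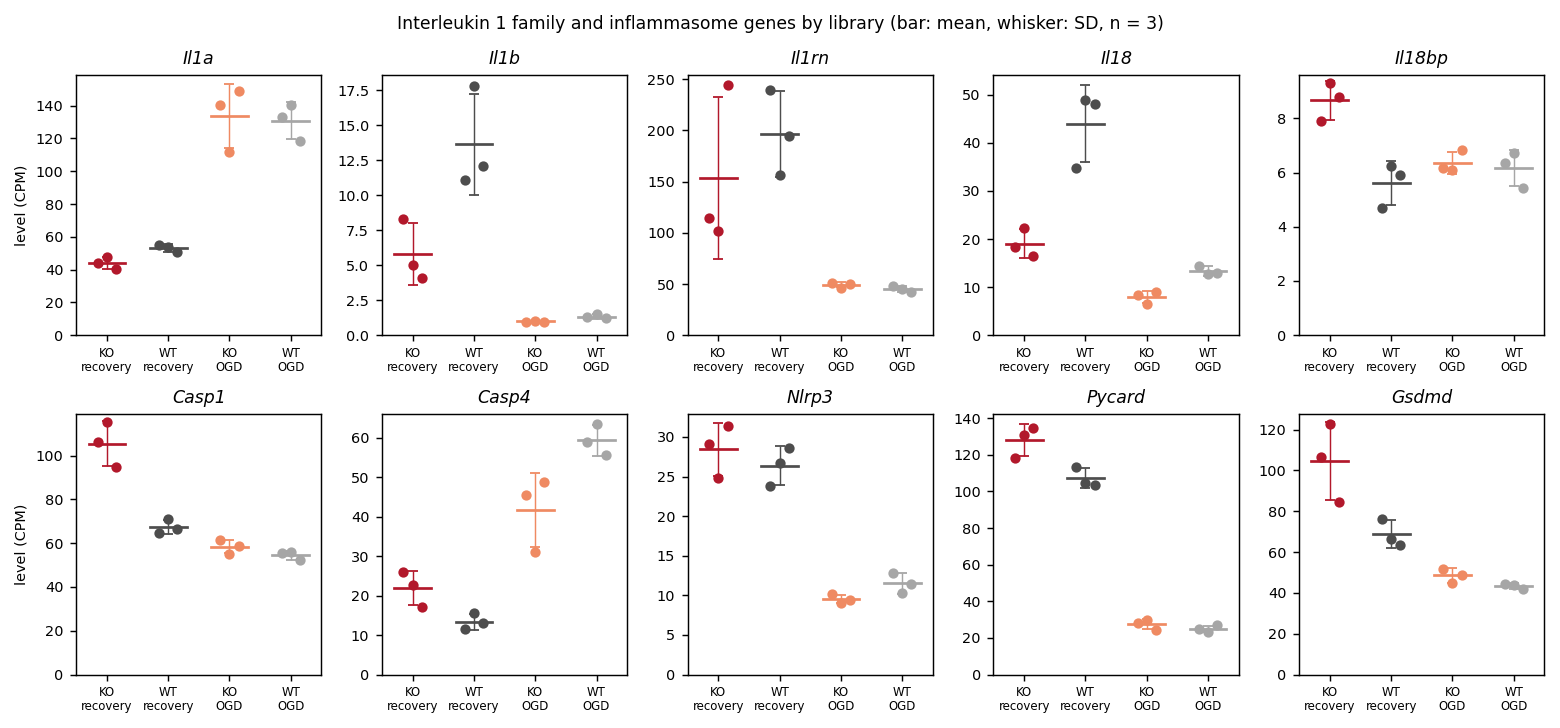
Level of each of the 10 genes in CPM (linear axis from 0) in the 3 libraries of KO-recovery, WT-recovery, KO-OGD and WT-OGD; points are libraries, bars means and whiskers SD. Il1a and Casp4 stood higher straight after OGD, Il18bp differed little between the times in WT, and the other 7 genes stood higher after recovery in both genotypes.

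Il1a and Il1b are close neighbours on chromosome 2 and moved in opposite directions with recovery. Both encode ligands of the interleukin 1 receptor, and Il1b lies at chr2:129364570-129371139 on the minus strand (GRCm38). The 220 bases before each annotated start are given for comparison, from RefSeq (GRCm38.p6, minus strand, chr2:129309973-129310192 for Il1a and chr2:129371140-129371359 for Il1b). Capitals mark the letters TATAAA, read on the sense strand only, and matches to the AP-1 motif TGANTCA on either strand.
Il1a: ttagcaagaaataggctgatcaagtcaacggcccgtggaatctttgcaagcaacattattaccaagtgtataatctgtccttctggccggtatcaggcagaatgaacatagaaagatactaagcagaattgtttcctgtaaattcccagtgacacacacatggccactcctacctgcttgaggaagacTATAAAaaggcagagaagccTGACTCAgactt
Il1b: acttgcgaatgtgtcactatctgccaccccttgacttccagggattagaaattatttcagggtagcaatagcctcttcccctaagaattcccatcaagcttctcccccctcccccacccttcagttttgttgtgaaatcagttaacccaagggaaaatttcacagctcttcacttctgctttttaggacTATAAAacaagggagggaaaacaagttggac
Both windows hold TATAAA, at -32 to -27 for Il1a and at -31 to -26 for Il1b relative to the start, and so do 6.79% of all 32851 RefSeq windows of this length. Only the Il1a window of the pair holds the AP-1 letters, at -12 to -6, which 5.96% of all windows hold. Neither window matched the C/EBP motif TTGCNNAA (8.29% of all windows), the interferon-stimulated response element (2.55%) or the NF-kB consensus (6.52%), each searched on both strands. A match or its lack describes letters only.

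Il1a measured 43.9, 47.5 and 40.1 CPM in the KO-recovery libraries, against 140.3, 112 and 149 CPM in KO-OGD. In WT it stood at 55.3, 53.7 and 50.8 CPM after recovery, against 133, 140.5 and 119 CPM after OGD. Every recovery library lay below every OGD library in both genotypes. With recovery Il1a fell by 1.61 on the log2 scale in KO (SE 0.11, edgeR adjusted p = 1.03e-08) and by 1.30 in WT (SE 0.11, adjusted p = 1.20e-07). The 3 KO-recovery libraries lay below the 3 WT-recovery libraries, but the difference of -0.28 was not called (SE 0.11, edgeR adjusted p = 0.0786). Straight after OGD the genotypes overlapped, at a log2 fold change of 0.03 (SE 0.10, edgeR adjusted p = 0.918). These values are those of Il1a and Gm14023 together.

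Il1b was the lowest of the 10 in CPM straight after OGD and rose more than any other member with recovery. It had 8.33, 4.98 and 4.07 CPM in KO-recovery, from 168, 61 and 76 counts, against 0.971, 1.05 and 0.930 CPM in KO-OGD, from 41, 32 and 34 counts. In WT it had 11.1, 17.8 and 12.1 CPM after recovery, from 97, 291 and 163 counts, against 1.27, 1.505 and 1.23 CPM after OGD, from 52, 51 and 59 counts. No recovery library overlapped an OGD library. The rise was 2.57 on the log2 scale in KO (SE 0.27, edgeR adjusted p = 1.17e-06) and 3.37 in WT (SE 0.25, adjusted p = 4.42e-08), or 5.93-fold and 10.3-fold. The interaction (the log2 change with recovery in KO minus the same change in WT) was -0.80 and was not called (SE 0.37, edgeR adjusted p = 0.235).

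Il1b averaged 5.79 ± 2.24 CPM in KO-recovery and 13.6 ± 3.61 CPM in WT-recovery (SD, n = 3 each), and every KO library lay below every WT library. The log2 fold change was -1.23 (SE 0.24, edgeR adjusted p = 0.00180). Straight after OGD the KO libraries again lay below those of WT, at -0.43, without a call (SE 0.28, edgeR adjusted p = 0.482). When the mean level of the astrocyte markers was a covariate, an alternative chosen after seeing the data, the recovery difference was -0.41 and was not called (edgeR adjusted p = 0.606). Neutrophils and monocytes are other known sources of interleukin 1 beta. The sum of 11 neutrophil markers was 44.7 to 66.9 CPM in KO-recovery, 29.7 to 40.3 CPM in WT-recovery, 58.7 to 66.8 CPM in KO-OGD and 57.4 to 69.5 CPM in WT-OGD, and 1 of the 3 tested was called higher in KO after recovery. Most of that sum was Csf3r, at 20.3 to 65.9 CPM over all libraries, and S100a8 lay at 5.06 to 8.91 CPM after recovery and 2.00 to 2.46 CPM after OGD. Ly6g had no count in any library, and S100a9 and Retnlg had counts only in KO-recovery replicates 1 and 3, with S100a9 at 0.446 and 0.428 CPM. The sum of 6 monocyte markers was 88.4 to 122.7 CPM in KO-recovery, 91.9 to 110 CPM in WT-recovery, 16.2 to 17.3 CPM in KO-OGD and 23.8 to 28.3 CPM in WT-OGD. Its largest parts after recovery were Chil3, at 39.9 to 67.9 CPM, and Ccr2, at 22.7 to 32.1 CPM. Ly6c2 and Plac8 reached at most 0.366 and 0.297 CPM in any library. The part of either cell type in the values of Il1b was not tested.

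The balance of both ligands differed between the times. Counts of Il1a over those of Il1b were 5.27, 9.54 and 9.86 in KO-recovery, against 145, 106 and 160.5 in KO-OGD. In WT they were 4.99, 3.02 and 4.21 after recovery, against 105, 93.4 and 96.7 after OGD. The ratio lay below 10 in each recovery library and above 90 in each OGD library. Il1a and Il1b have similar exon lengths (1.97 and 1.91 kb), but the counts include introns and the whole genes span 10.36 and 6.57 kb. The Il1a counts are those of Il1a and Gm14023 together. This ratio, chosen after its values were seen, was not tested.

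Il1rn, which encodes the receptor antagonist (chr2:24336853-24351494, plus strand, GRCm38), rose with recovery in both genotypes. It stood at 114, 101 and 244 CPM in KO-recovery, against 51.1, 46.4 and 50.0 CPM in KO-OGD. In WT it stood at 239.5, 156 and 194 CPM after recovery, against 48.4, 44.7 and 42.4 CPM after OGD. All recovery libraries lay above all OGD libraries, and KO-recovery replicate 3 lay far above the other 2 KO-recovery libraries. The rise was 1.64 on the log2 scale in KO (SE 0.30, edgeR adjusted p = 9.60e-04) and 2.12 in WT (SE 0.31, adjusted p = 2.05e-04). KO-recovery averaged 153 ± 79.0 CPM and WT-recovery 197 ± 41.8 CPM (SD, n = 3 each). The genotype difference of -0.35 was not called (SE 0.29, edgeR adjusted p = 0.433). Its call depended on the libraries and on the filter. Without KO-recovery replicate 3 the value was -0.86 and called (edgeR adjusted p = 5.06e-04), and with all libraries but no filter on low counts it was -0.33 and called (adjusted p = 0.00938). The interaction was -0.48 and not called (edgeR adjusted p = 0.575), against -0.99 without that library (adjusted p = 0.00472) and -0.49 without the filter (adjusted p = 0.0160). The genotype difference was 0.03 without the 2 libraries of highest mitochondrial share (WT-recovery replicate 1 and KO-recovery replicate 2), so the direction rests on which libraries are kept. The Il1rn window, not printed, holds an AP-1 match at -134 to -128.

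Set against its antagonist within each library, Il1b stayed the minor transcript. Counts of Il1b over those of Il1rn were 0.0729, 0.0491 and 0.0167 in KO-recovery, against 0.0462, 0.114 and 0.0621 in WT-recovery. They were 0.0190, 0.0226 and 0.0186 in KO-OGD, against 0.0262, 0.0337 and 0.0289 in WT-OGD. After recovery the genotypes overlapped (log2 difference -0.82, two-sided exact permutation p = 0.5), and straight after OGD all KO libraries lay below all WT libraries (-0.56, exact permutation p = 0.1). In WT the ratio after recovery was above that after OGD by 1.23 on the log2 scale (exact permutation p = 0.1), and in KO the times overlapped at 0.97 (exact permutation p = 0.4). With 3 libraries against 3, an exact permutation p of 0.1 is the smallest possible, so no ratio could be called. Adjusted over the 8 ratio tests it was 0.133.

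Il18 was lower in KO than in WT at both times. The gene (chr9:50554827-50581840, plus strand, GRCm38) encodes a cytokine that drives interferon gamma production. It stood at 18.4, 22.3 and 16.4 CPM in KO-recovery, against 34.8, 49.0 and 48.1 CPM in WT-recovery. Straight after OGD it stood at 8.26, 6.51 and 9.05 CPM in KO, against 14.4, 12.7 and 12.9 CPM in WT. The genotypes did not overlap at either time, and WT-recovery held the 3 highest libraries of all. The log2 fold change was -1.22 after recovery (SE 0.15, edgeR adjusted p = 6.70e-05) and -0.74 after OGD (SE 0.15, adjusted p = 0.00687). The interaction of -0.48 was not called (SE 0.21, edgeR adjusted p = 0.210), so that fit did not show a genotype difference of another size after recovery than after OGD. The interaction was called without the 2 libraries of highest mitochondrial share (-0.76, edgeR adjusted p = 0.0265). With recovery Il18 rose by 1.25 in KO (SE 0.15, edgeR adjusted p = 6.72e-06) and by 1.73 in WT (SE 0.15, adjusted p = 1.84e-07).

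Beside the lower Il18, astrocyte markers were lower in KO as well, with 6 of 8 called lower after recovery and 8 of 8 straight after OGD. Markers of other brain cells were lower in KO too: 4 of 7 of the oligodendrocyte lineage and 3 of 6 of neurons after recovery, and 2 of 7 and 3 of 6 after OGD. With recovery 6 of 7 oligodendrocyte markers and 5 of 6 neuron markers rose in KO, and 7 of 7 and 5 of 6 in WT. Of the 8 astrocyte markers 2 rose and 0 fell in KO, and 1 rose and 2 fell in WT. Over all genes 29.3% rose in KO and 26.9% in WT. The oligodendrocyte markers summed to 110.3 to 135 CPM in KO-recovery, 159.5 to 209 CPM in WT-recovery, 44.6 to 59.1 CPM in KO-OGD and 47.8 to 48.3 CPM in WT-OGD. Their part and that of neurons was not tested. With the mean level of the astrocyte markers as a covariate, chosen after seeing the data, the genotype value was -0.94 after recovery (edgeR adjusted p = 0.0533) and -0.41 straight after OGD (adjusted p = 0.602), and neither was called. The covariate runs nearly with genotype (KO libraries at 1.11 to 2.24 and WT libraries at 2.94 to 3.59 on the mean log2 CPM scale), and these ranges do not overlap, so such a fit compares the genotypes at a level that they did not share. The call straight after OGD was also lost when all libraries were thinned to the depth of the smallest (-0.57, edgeR adjusted p = 0.106).

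Il18bp, whose secreted product binds interleukin 18 and keeps it from its receptor, was higher in KO than in WT after recovery. The gene lies at chr7:102014885-102018690 on the minus strand (GRCm38). It stood at 7.88, 9.31 and 8.78 CPM in KO-recovery, against 4.68, 6.23 and 5.92 CPM in WT-recovery. The KO-OGD libraries had 6.15, 6.08 and 6.84 CPM, against 6.34, 6.73 and 5.45 CPM in WT-OGD. The genotypes overlapped after OGD and stood apart after recovery, with KO above. KO over WT was 0.60 on the log2 scale after recovery (SE 0.15, edgeR adjusted p = 0.00870) and 0.05 after OGD (SE 0.13, adjusted p = 0.912). With recovery it rose by 0.44 in KO (SE 0.14, edgeR adjusted p = 0.0114), and in WT the value was -0.12 without a call (SE 0.14, adjusted p = 0.506). The genotype call was lost without the 2 libraries of highest mitochondrial share (0.45, edgeR adjusted p = 0.0710) and with the astrocyte covariate (0.58, adjusted p = 0.206), and the rise in KO was not called without KO-recovery replicate 2 (0.37, adjusted p = 0.0508).

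The ratio of Il18 counts to Il18bp counts sets both genes side by side within each library. It was 2.34, 2.39 and 1.87 in KO-recovery, against 7.44, 7.86 and 8.14 in WT-recovery. It was 1.34, 1.07 and 1.32 in KO-OGD, against 2.28, 1.89 and 2.37 in WT-OGD. Every KO library lay below every WT library at the same time, and KO-recovery and WT-OGD libraries covered nearly the same range. The log2 difference between the genotypes was -1.84 after recovery and -0.81 after OGD, each at exact permutation p = 0.1, the smallest possible here (0.133 adjusted over the 8 ratio tests). The log2 difference of recovery over OGD was 0.82 in KO and 1.85 in WT, again at exact permutation p = 0.1. The ratio does not depend on how libraries were scaled to one another.

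**Figure D2:**
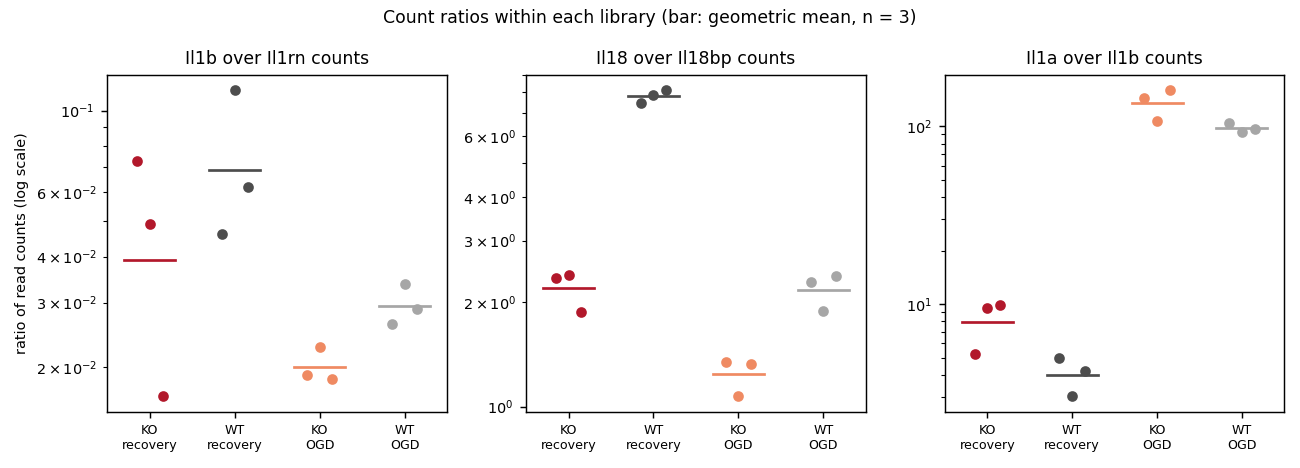
Ratios of raw counts within each library on log axes for Il1b over Il1rn, Il18 over Il18bp and Il1a over Il1b in KO-recovery, WT-recovery, KO-OGD and WT-OGD; points are libraries and bars geometric means of 3. The Il18 over Il18bp ratio of WT-recovery (7.44 to 8.14) stood above all other libraries, of which the highest was 2.39, and KO-recovery replicate 3 had the lowest Il1b over Il1rn ratio of all 12 libraries (0.0167).

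The sensor gene Nlrp3 and the adaptor gene Pycard rose with recovery in both genotypes and were not called between them. Nlrp3 (chr11:59541568-59566956, plus strand, GRCm38) stood at 29.1, 24.8 and 31.4 CPM in KO-recovery, against 10.1, 9.04 and 9.46 CPM in KO-OGD. In WT it stood at 23.7, 26.7 and 28.6 CPM after recovery, against 12.8, 10.3 and 11.4 CPM after OGD. Recovery libraries lay above OGD libraries throughout. The rise was 1.58 on the log2 scale in KO (SE 0.11, edgeR adjusted p = 2.11e-08) and 1.20 in WT (SE 0.11, adjusted p = 4.50e-07). Between genotypes the values were 0.11 after recovery, with overlap (edgeR adjusted p = 0.529), and -0.27 after OGD, where all KO libraries lay below those of WT without a call (adjusted p = 0.205).

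Pycard (chr7:127989708-127993867, minus strand, GRCm38) stood at 118, 131 and 135 CPM in KO-recovery, against 28.4, 29.6 and 24.4 CPM in KO-OGD. In WT it stood at 113, 105 and 103 CPM after recovery, against 24.6, 23.4 and 26.9 CPM after OGD. Times were far apart, and KO-recovery lay above WT-recovery in all libraries. Recovery raised it by 2.22 in KO (SE 0.09, edgeR adjusted p = 8.79e-11) and by 2.10 in WT (SE 0.09, adjusted p = 2.47e-10), the smallest p-values of the 10 genes in these comparisons. The genotype difference after recovery was 0.26 (SE 0.09) at an edgeR adjusted p of 0.0516, just above the threshold. It was called in 8 of 21 alternatives, among them DESeq2 (0.27, adjusted p = 0.0271). Straight after OGD the genotype difference was 0.14 (SE 0.09, edgeR adjusted p = 0.494). The counts of the overlapping Gm45205 are part of these values.

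Casp1 and Casp4, neighbours on chromosome 9, moved in opposite directions with recovery in both genotypes. Casp1 encodes the protease of the inflammasome, and Casp4 encodes caspase-11. Their RefSeq windows before the start are given because the genes differ in response (GRCm38.p6, plus strand, chr9:5298297-5298516 for Casp1 and chr9:5308608-5308827 for Casp4). Capitals mark matches to the NF-kB consensus on either strand.
Casp1: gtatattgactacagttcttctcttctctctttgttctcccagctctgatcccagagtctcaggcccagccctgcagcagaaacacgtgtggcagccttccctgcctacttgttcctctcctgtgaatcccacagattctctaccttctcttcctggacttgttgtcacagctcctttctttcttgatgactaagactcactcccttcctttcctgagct
Casp4: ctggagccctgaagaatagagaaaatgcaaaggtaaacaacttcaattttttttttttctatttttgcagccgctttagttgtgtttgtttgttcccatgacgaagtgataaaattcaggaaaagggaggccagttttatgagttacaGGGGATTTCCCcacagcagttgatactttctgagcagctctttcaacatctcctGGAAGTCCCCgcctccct
The Casp4 window holds NF-kB consensus matches at -72 to -62, where 2 overlap, and at -18 to -9, and 6.52% of all windows hold at least 1. The Casp1 window matched none of the 5 motifs searched. Of the 8 genes with a window, Nlrp3 also matched the NF-kB consensus, at -185 to -176, and Pycard the C/EBP motif, at -142 to -135, while Il18 matched none.

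Casp1 (chr9:5298517-5307265, plus strand, GRCm38) stood at 106, 115 and 94.6 CPM in KO-recovery, against 64.5, 71.0 and 66.4 CPM in WT-recovery. The KO-OGD libraries had 61.3, 55.2 and 58.7 CPM, against 55.5, 55.9 and 52.2 CPM in WT-OGD. The KO-recovery libraries were the 3 highest, and the genotypes overlapped after OGD. The log2 fold change between genotypes was 0.64 after recovery (SE 0.08, edgeR adjusted p = 1.08e-04) and 0.10 after OGD (SE 0.08, adjusted p = 0.600). Casp1 rose with recovery by 0.85 in KO (SE 0.08, edgeR adjusted p = 5.17e-07) and by 0.31 in WT (SE 0.08, adjusted p = 0.00590). The interaction was 0.54 (SE 0.12, edgeR adjusted p = 0.0154), against a background of 5.25% of genes called for it (2.89% higher, 2.36% lower). It was not called without the 2 libraries of highest mitochondrial share (0.42, edgeR adjusted p = 0.0605) or without WT-OGD replicate 2 (0.52, adjusted p = 0.0513). The genotype call after recovery held in every alternative. The fit with the astrocyte covariate (0.80, edgeR adjusted p = 0.00866) compares the genotypes at a marker level that they did not share.

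Casp4 (chr9:5308828-5336783, plus strand, GRCm38) stood at 26.0, 22.6 and 17.2 CPM in KO-recovery, against 11.5, 15.6 and 12.9 CPM in WT-recovery. Straight after OGD it stood at 45.4, 31.0 and 48.7 CPM in KO, against 58.9, 63.5 and 55.7 CPM in WT. KO lay above WT after recovery and below it after OGD, with no overlap at either time. The log2 fold change was 0.70 after recovery (SE 0.19, edgeR adjusted p = 0.0179), and after OGD it was -0.51 without a call (SE 0.16, adjusted p = 0.0864). With recovery Casp4 fell by 0.93 in KO (SE 0.17, edgeR adjusted p = 4.04e-04) and by 2.14 in WT (SE 0.18, adjusted p = 4.56e-07). The interaction of 1.21 was called (SE 0.25, edgeR adjusted p = 0.0146).

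The genotype call of Casp4 after recovery rested on single libraries. It was lost without KO-recovery replicate 1 (0.55, edgeR adjusted p = 0.0805) or 2 (0.67, 0.0583), and without WT-recovery replicate 1 (0.61, 0.0628) or 3 (0.66, 0.0661). It was lost too without both KO-recovery libraries with muscle and cartilage transcripts (0.74, edgeR adjusted p = 0.0672) and without the 2 of highest mitochondrial share (0.60, adjusted p = 0.149). That last fit also ended the interaction call (1.08, edgeR adjusted p = 0.0844). With the astrocyte covariate the difference was 1.44 after recovery and was called (edgeR adjusted p = 0.00268), and the value after OGD changed sign to 0.37 (adjusted p = 0.549). Without WT-recovery replicate 1, the library whose treatment field names no recovery, 5 members were called between genotypes after recovery.

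Counts of Casp4 over those of Casp1 were 0.244, 0.196 and 0.182 in KO-recovery, against 0.179, 0.219 and 0.195 in WT-recovery. Straight after OGD they were 0.740, 0.560 and 0.829 in KO, against 1.06, 1.13 and 1.07 in WT. The genotypes overlapped after recovery and did not after OGD. This ratio was chosen after its values were seen and was not tested.

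Gsdmd, which encodes the pore protein gasdermin D (chr15:75862327-75867408, plus strand, GRCm38), was likewise higher in KO than in WT after recovery. It stood at 106, 122.6 and 84.5 CPM in KO-recovery, against 76.4, 66.4 and 63.3 CPM in WT-recovery. The KO-OGD libraries had 51.8, 44.9 and 49.0 CPM, against 44.5, 44.1 and 41.8 CPM in WT-OGD. KO lay above WT at both times without overlap, by a narrow margin after OGD. KO over WT was 0.61 on the log2 scale after recovery (SE 0.12, edgeR adjusted p = 0.00182) and 0.16 after OGD without a call (SE 0.11, adjusted p = 0.527). With recovery it rose by 1.10 in KO (SE 0.12, edgeR adjusted p = 1.04e-06) and by 0.66 in WT (SE 0.12, adjusted p = 1.95e-04). The interaction of 0.45 was not called (SE 0.16, edgeR adjusted p = 0.130), and it was called without KO-recovery replicate 3 (0.57, adjusted p = 0.0104). With the astrocyte covariate, at a marker level that the genotypes did not share, the recovery difference stood at 0.89 (edgeR adjusted p = 0.0184).

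Side by side, the members of the cleavage machinery were higher in KO after recovery where called, and the called cytokines lower. The median log2 fold change of the 10 genes between genotypes was 0.18 after recovery, beside 0.01 over all genes tested, and 0.04 after OGD, beside -0.01. Groups did not overlap for 8 of the 10 after recovery, where 33.5% of all genes showed this, and for 5 after OGD, where 30.4% did. For recovery over OGD the median was 1.18 in KO, beside 0.000229 over all genes, and 0.93 in WT, beside -0.03. There the times did not overlap for 10 of 10 in KO and 9 of 10 in WT, against 61.2% and 67.1% of all genes. The comparisons share libraries and are not independent of one another.

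**Figure D3:**
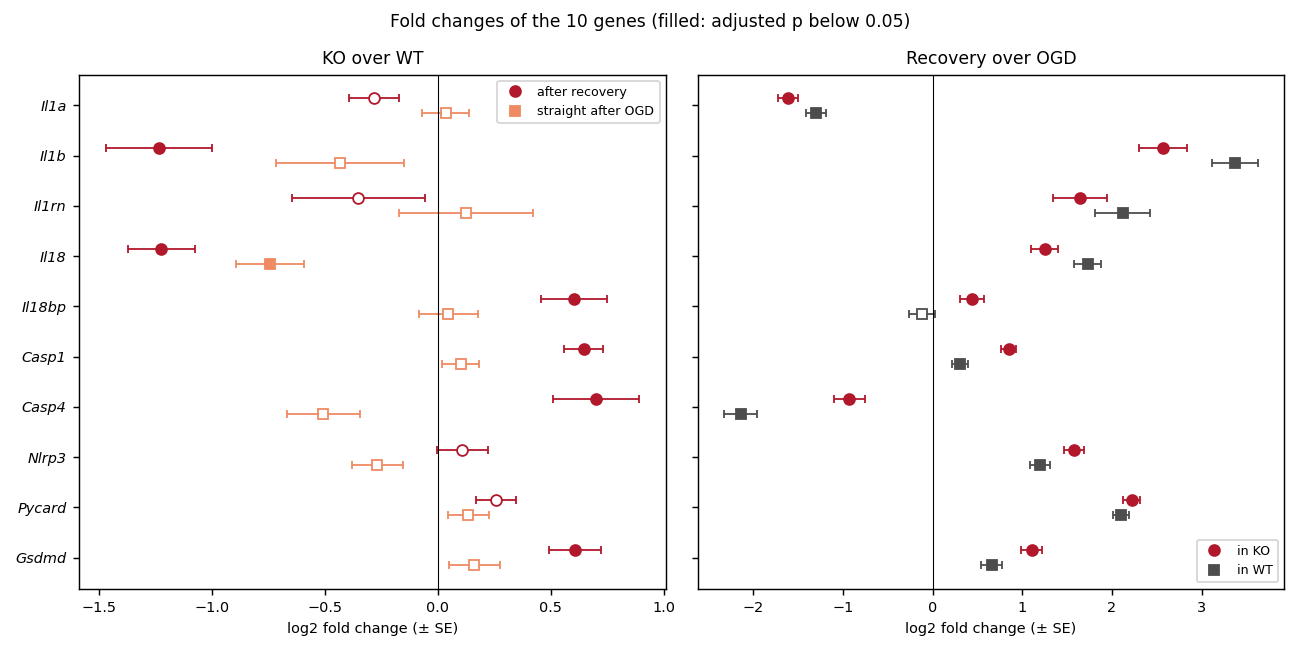
Log2 fold change with SE of the 10 genes for KO over WT after recovery and straight after OGD (left) and for recovery over OGD in KO and in WT (right); filled points have an edgeR adjusted p below 0.05. Casp4 has opposite signs at the 2 times in the left panel, at 0.70 after recovery and -0.51 after OGD, and in the right panel Il1b has the largest rise, 2.57 in KO and 3.37 in WT.

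Levels between genes were compared per length, once per kb of exon and once per kb of the whole gene, because the counts include introns. Per kb of exon, Il1a came first straight after OGD, at 67.8 ± 9.85 CPM in KO and 66.3 ± 5.65 CPM in WT (SD, n = 3 each), followed by Casp1 and Gsdmd without overlap between neighbours. Per kb of gene Il1a was again first, at 12.9 CPM in KO and 12.6 CPM in WT, and Il1b was last on both scales. After recovery Casp1 came first per kb of exon in KO, at 70.4 ± 6.96 CPM, and in WT, at 45.0 ± 2.25 CPM, but in WT its libraries overlapped those of Il18, the next gene. Per kb of gene Pycard came first after recovery in both genotypes, so the order of the upper genes depends on the length used. Per kb of exon Il18 averaged 18.5 CPM in KO-recovery, rank 6 of 10, and 42.7 CPM in WT-recovery, rank 2.

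**Figure D4:**
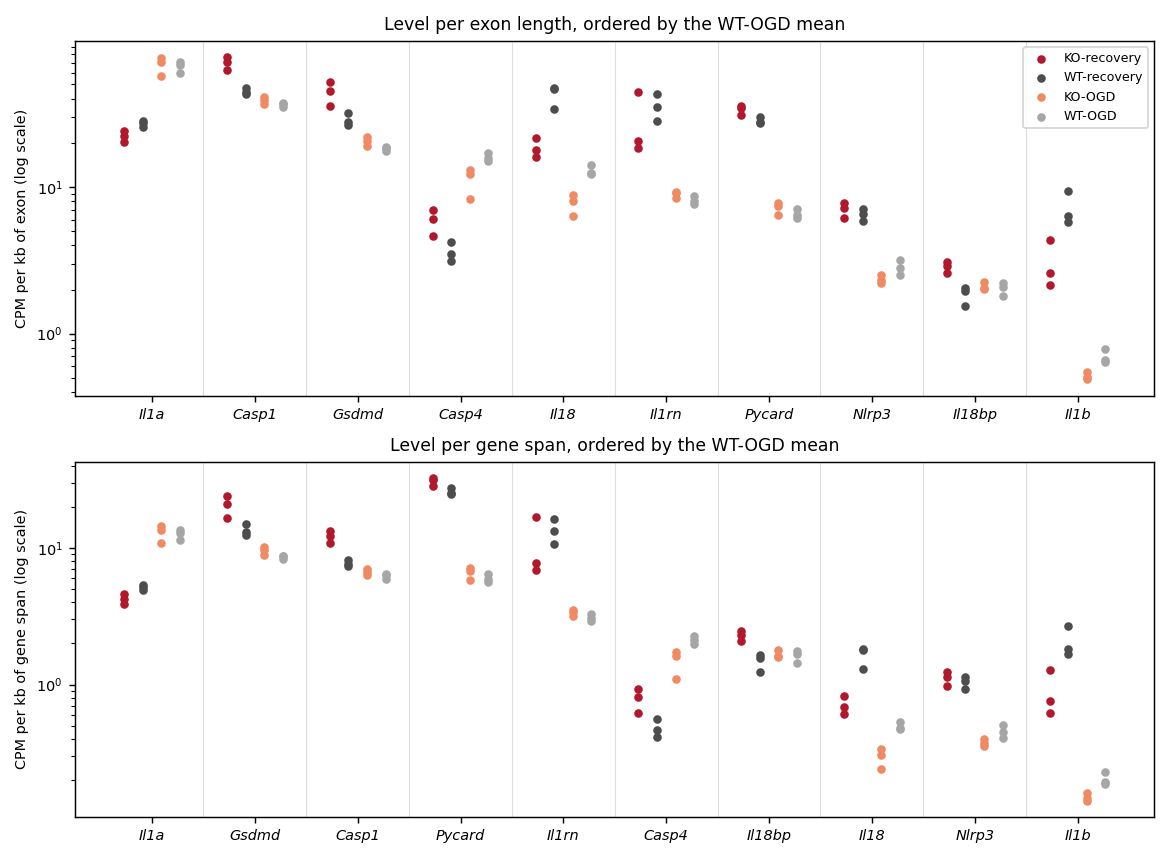
Level of the 10 genes per kb of exon (top) and per kb of gene span (bottom), in CPM per kb on log axes, in KO-recovery, WT-recovery, KO-OGD and WT-OGD; each point is a library and genes are ordered by the WT-OGD mean. Il1a is first and Il1b last straight after OGD on both scales, and the order of the genes between them differs between the scales.

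Other genes of the pathway were taken from a list of 62 names, of which 57 matched the table and 49 passed the filter. Between genotypes, 8 were higher and 5 lower in KO after recovery, and 3 were higher and 4 lower after OGD. With recovery, 26 rose and 15 fell in KO, and 19 rose and 16 fell in WT. The interaction was called for 5 higher and 1 lower. Over all genes tested, 22.2% were called between genotypes after recovery, 7.49% after OGD, 59.0% with recovery in KO, 56.8% with recovery in WT and 5.25% for the interaction, and the counts of single lists are to be read against these shares.

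Of 6 further ligand genes 2 were tested, the alarmin gene Il33 and Il1f9. Il33 had 13, 19 and 12 counts in KO-recovery, against 7, 9 and 6 in WT-recovery. The OGD libraries had 2, 1 and 1 in KO, against 3, 11 and 24 in WT. So few counts, with WT-OGD libraries spread over 3 to 24, carry its call lower in KO after OGD (-2.91, SE 0.78, edgeR adjusted p = 0.0323) and its rise in KO (4.45, SE 0.73, adjusted p = 9.15e-05). Of 7 tested receptor genes, 4 rose and 1 fell with recovery in KO, and 3 rose and 2 fell in WT, where 29.3% and 26.9% of all genes rose. Il1rl1, the receptor of interleukin 33, rose by 2.94 in KO (SE 0.45, edgeR adjusted p = 4.72e-05) and by 3.22 in WT (SE 0.39, adjusted p = 4.82e-06), and after recovery it was lower in KO (-1.10, SE 0.36, adjusted p = 0.0388), a call lost in 13 of 21 alternatives. Il18rap, a chain of the interleukin 18 receptor, rose by 3.30 in KO (SE 0.43, edgeR adjusted p = 1.12e-05) and by 2.48 in WT (SE 0.38, adjusted p = 4.79e-05), from levels of at most 0.624 CPM after OGD. The decoy receptor gene Il1r2 rose by 2.35 in WT (SE 0.40, edgeR adjusted p = 1.45e-04), and up to 71.4% of its few reads can be shared with Gm16894.

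Of 10 receptor signalling genes, 6 fell and 2 rose with recovery in each genotype, where over all genes 29.6% fell in KO and 29.9% in WT. The falls were Irak1, Irak2, Traf6, Tollip, Tab2 and Map3k7 in both, and Myd88, the adaptor of the receptor, rose in both. Tollip, an inhibitor of this signalling, stood at 80.1, 70.3 and 82.8 CPM in KO-recovery, against 149, 164 and 154 CPM in KO-OGD, a fall of 1.00 on the log2 scale (SE 0.08, edgeR adjusted p = 6.82e-08). Between genotypes only Irak4, lower in KO after recovery, was called. For Myd88, which lies wholly within the span of Slc22a14, the counts set no bound on shared reads, and Irak4 can share at most 73.0 to 85.7% of its reads with Twf1. Irak3 shares only 541 of its 60483 bases with Tmbim4 and at most 5.03% of its reads with Gm47009.

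Other inflammasome sensors differed between genotypes after recovery, where 4 of 10 were higher in KO (Aim2, Nlrp1b, Naip6 and Zbp1) and 1 lower (Nlrc4), against 22.2% of all genes called. Aim2, a sensor of DNA in the cytoplasm, stood at 66.9, 77.1 and 60.8 CPM in KO-recovery, against 50.8, 44.4 and 48.7 CPM in WT-recovery, with no overlap (0.51, SE 0.10, edgeR adjusted p = 0.00166, called in every alternative). Zbp1, a sensor of Z-form nucleic acids, stood at 38.9, 41.3 and 27.5 CPM in KO-recovery, against 23.2, 26.5 and 20.5 CPM in WT-recovery (0.61, SE 0.15, edgeR adjusted p = 0.00991). Nlrp1b (0.39, SE 0.13, edgeR adjusted p = 0.0491) lost its call in 14 of 21 alternatives, and Nlrc4 (-0.36, SE 0.11, adjusted p = 0.0215) in 8. With recovery, Naip1 fell by 1.43 in KO (SE 0.24, edgeR adjusted p = 1.18e-04) and by 0.92 in WT (SE 0.24, adjusted p = 0.00437), while Naip2 fell by 1.06 and Naip6 by 0.84 in WT (adjusted p = 1.36e-06 and 4.44e-06). The Naip genes and the Nlrp1 genes are close copies, and how their reads were split is uncertain.

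Among NLRP3 cofactors Txnip moved furthest. Txnip, which encodes a thioredoxin-binding protein that responds to glucose, stood at 379, 326 and 330.0 CPM in KO-recovery, against 15.3, 14.8 and 14.6 CPM in KO-OGD. In WT it stood at 282, 287 and 309.5 CPM after recovery, against 18.6, 17.8 and 16.5 CPM after OGD. Times were over an order of magnitude apart, a rise of 4.53 on the log2 scale in KO (SE 0.09, edgeR adjusted p = 6.38e-14) and 4.05 in WT (SE 0.09, adjusted p = 9.50e-14). The interaction of 0.48 was called (SE 0.12, edgeR adjusted p = 0.0302). The antisense gene Gm15441 spans all of Txnip and had counts within 0.667% of it, so these reads cannot be told apart by gene. Panx1, a membrane channel gene, stood at 39.3, 56.6 and 40.6 CPM in KO-OGD, against 32.9, 31.0 and 29.9 CPM in WT-OGD (0.54, SE 0.13, edgeR adjusted p = 0.0192). That call was lost in 5 of 21 alternatives. With recovery Panx1 fell by 1.02 in KO (SE 0.14, edgeR adjusted p = 1.34e-05), and the interaction was -0.89 (SE 0.19, adjusted p = 0.0154).

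Casp12, a relative of Casp1 and Casp4, was lower in KO at both times. It had 7, 3 and 2 counts in KO-recovery, against 8, 25 and 7 in WT-recovery. The OGD libraries had 18, 8 and 24 in KO, against 64, 51 and 72 in WT. The log2 fold change was -2.09 after recovery (SE 0.53, edgeR adjusted p = 0.0106) and -1.73 after OGD (SE 0.36, adjusted p = 0.00737). Gsdme, the gasdermin cut by caspase-3, was higher in KO after recovery (0.35, SE 0.09, edgeR adjusted p = 0.0125). The overlapping Mpp6 shares 10052 of the 74975 bases of Gsdme, and the counts set no bound on their shared reads. Ninj1, needed for membrane rupture in lytic death, stood at 108, 114 and 96.7 CPM in KO-OGD, against 69.9, 72.0 and 68.3 CPM in WT-OGD (0.60, SE 0.13, edgeR adjusted p = 0.00959).

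Of 5 inhibitor genes, Serpinb1a, which encodes an inhibitor of serine proteases and inflammatory caspases, was lower in KO at both times. It stood at 5.35, 4.25 and 11.1 CPM in KO-recovery, against 12.2, 16.5 and 18.9 CPM in WT-recovery (-1.19, SE 0.28, edgeR adjusted p = 0.00843). Straight after OGD it stood at 3.83, 3.15 and 3.61 CPM in KO, against 8.32, 7.58 and 9.56 CPM in WT (-1.26, SE 0.27, edgeR adjusted p = 0.0122). As with Il1rn, KO-recovery replicate 3 was the highest of its group. Card19 was higher in KO after OGD (0.55, SE 0.08, edgeR adjusted p = 8.67e-04) and Nlrx1 lower (-0.42, SE 0.10, adjusted p = 0.0170). The Nlrx1 call was lost in 6 of 21 alternatives, and Nlrx1 can share at most 28.3 to 37.3% of its reads with Gm10686, by library. Nlrc3 fell with recovery by 1.44 in KO (SE 0.10, edgeR adjusted p = 9.54e-09) and by 1.81 in WT (SE 0.10, adjusted p = 1.73e-09).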

How the data were processed

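Total RNA-seq counts per gene were deposited by the authors as 1 table of 12 libraries, made with HISAT2 and featureCounts on GRCm38, per the submitters' processing notes; versions and counting options are not given in the sources used here. That introns and both strands were counted was read from the values of nested genes. A stranded total RNA kit was named per the labels' protocols, although the molecule field names polyA RNA. WT-recovery replicate 1 was grouped by its title.

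Genes were filtered with filterByExpr of edgeR 4.0.16 (R 4.3.3), scaled by TMM and fitted over all 12 libraries with the quasi-likelihood test, with Benjamini-Hochberg adjustment over 18842 genes and a threshold of 0.05. The common biological coefficient of variation was 0.119. DESeq2 1.42.0 was an alternative. Ratios of counts, with no count added, were compared by exact permutation. Data were also simulated for KO against WT after OGD, over 18360 genes. There the test called 100% of 100 genes changed by 1 and of 100 changed by 2 on the log2 scale. Of its calls 2.91% were false. The simulated spread was the same for all genes and libraries, and changed genes were drawn only from those above a minimum mean level. Both shares hold for these settings only. Smaller changes were not tested in this way, and whether these shares hold for the measured libraries was not tested.

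Pathway genes were named by a rule: up to 4 called genes in each direction per comparison, by size of change. List members given by name alone fall outside it. The members and lists were chosen with earlier results of these data known. Other alternatives were no filter, the 6 libraries compared alone, a replicate block, equal depth, omission of each library or of doubtful ones, and, chosen after seeing the data, an astrocyte marker covariate. Gene lengths came from the annotation, and promoter sequences from RefSeq (GRCm38.p6), where 9 of 10 genes had an entry and 8 a usable window.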

Additional observations from a re-analysis of the deposited data

Results flagged for a closer look

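By the tested interaction, the recovery change differed between KO and WT for 2 of the 10 genes and for 6 of 49 pathway genes. Over all genes tested, 5.25% were called for the interaction. WT-recovery also stood apart from the other 3 groups by Xist, so sex cannot be told apart from these differences. On the log2 scale the change in KO less that in WT was 0.54 for Casp1 (SE 0.12, edgeR adjusted p = 0.0154) and 1.21 for Casp4 (SE 0.25, adjusted p = 0.0146). Casp1 rose more in KO than in WT, and Casp4 fell less. The value was 3.54 for Il33, from 1 to 24 counts per library (edgeR adjusted p = 0.0469), 0.73 for Nlrp1b (adjusted p = 0.0381), 0.55 for Nlrx1 (adjusted p = 0.0397) and 0.50 for Aim2 (adjusted p = 0.0430). These last 4 calls were lost in 13 of 19, 12 of 20, 15 of 20 and 15 of 20 alternatives. For Panx1 it was -0.89 (edgeR adjusted p = 0.0154), a call lost in 1 of 20 alternatives. For Txnip, counted together with its antisense gene, it was 0.48 (edgeR adjusted p = 0.0302).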

How the results depend on the processing

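Of 50 values of the 10 genes (5 comparisons each), 28 were called, 20 of them in every alternative, 8 lost the call somewhere and 0 changed sign. Of the 22 not called, 7 were called in some alternative and 10 changed sign. For KO against WT after OGD, edgeR called 1 member, against 2 without a filter, 0 at equal depth and 0 with the astrocyte covariate, and 7 pathway genes, against 3 at equal depth and 0 with the covariate. After recovery it called 6 members, against 3 with the covariate, and 13 pathway genes, against 5 in the 6 libraries alone, 6 without the libraries of highest mitochondrial share, 8 without those with transcripts of other tissues and 3 with the covariate. The interaction was called for 2 members, against 1 without the highest mitochondrial shares and 4 without other tissues, and for 6 pathway genes, against 1 at equal depth and 3 without the highest mitochondrial shares.

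Values that changed sign after OGD were Il1a (-0.0014 and -0.051 without KO-OGD replicate 1 or 3, -0.014 without WT-OGD replicate 3, and otherwise up to 0.17 without 1 library) and Il18bp (-0.010 and -0.022 without KO-OGD replicate 3 or WT-OGD replicate 3). With the covariate they were Il1b at 0.58, Il1rn at -0.85, Casp4 at 0.37 and Pycard at -0.13. After recovery Il1a was 0.034 and Nlrp3 -0.085 with the covariate, Il1rn 0.026 without the highest mitochondrial shares, and Nlrp3 -0.10 without other tissues. Il18bp in WT, recovery over OGD, was 0.13 at equal depth and 0.00068 without the highest mitochondrial shares. The cause was not tested.

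Leaving out 1 library gave 1 to 2 members and 2 to 7 pathway genes for genotype after OGD, and 5 to 8 and 4 to 16 after recovery. For recovery over OGD it gave 9 to 10 and 36 to 40 in KO and 9 to 9 and 32 to 36 in WT, and for the interaction 1 to 4 and 1 to 8. The log2 difference in Il1b over Il1rn ran from -0.65 to -0.46 between genotypes after OGD, -1.27 to -0.20 after recovery, 0.52 to 1.58 with recovery in KO and 0.86 to 1.51 in WT. For Il18 over Il18bp these were -0.91 to -0.70, -1.90 to -1.72, 0.71 to 0.93 and 1.75 to 1.91.

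Replicate numbers did not pair the samples: deviations of same-numbered libraries correlated at -0.228 to 0.156. With a replicate block, members called stayed at 1 and 6 for genotype after OGD and recovery, 10 and 9 for recovery in KO and WT, and 2 for the interaction. Pathway genes with the block were 7, 9, 40, 35 and 2, against 7, 13, 41, 35 and 6, and the ratio tests gave exact p = 0.25 or 0.5.

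Counts over all genes moved by over 1.5 times in several fits. After OGD 1411 were called, against 2148 without a filter, 630 at equal depth, 44 with the covariate, and 747, 863, 760 and 524 without KO-OGD replicate 1 or 2 or WT-OGD replicate 2 or 3. After recovery 4175 were called, against 2756 in 6 libraries, 2653 without WT-recovery replicate 2 and 1512 with the covariate. For the interaction 989 were called, against 1532 by DESeq2, 1980 without a filter, 657 with the block, 592 at equal depth and 479 to 1770 without 1 library. At equal depth the calls of Il18 after OGD (-0.57) and of Il18bp with recovery in KO (0.30) were lost.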

Other observations

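For 3 of the genes the most similar profiles were sought among 9460 genes over the 12 libraries, by Pearson's r of log2 CPM. Such an r largely follows differences between the groups, in time and also in genotype. For Il1b they were Gm49450 (0.987), Lsm6 (0.985), Wdyhv1 (0.981), Podn (0.979) and Zcchc24 (0.979). For Il1rn they were Gm5424 (0.981), Adora2b (0.975), Nnt (0.975, listed under 2 identifiers) and Hsph1 (0.975). For Il18 they were Tnr (0.991), Gm38039 (0.985), Pttg1 (0.979), Rassf5 (0.977) and Map1lc3b (0.976). Tnr averaged 11.2 CPM in KO-recovery, against 75.5 CPM in WT-recovery, and Gm38039 5.39 CPM, against 49.1 CPM.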
